A study of Rattus norvegicus with 16 samples.

Results

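The comparison described here sets 3 kidneys taken on day 28 of dosing with 2-amino-4-nitrophenol (ANP) against 3 taken on day 14. It covers 6 of the 16 arrays in the study. ANP is a nitrophenol used in dye manufacture. It was given to male Crl:CD Sprague-Dawley rats by gavage at 750 mg/kg once daily in corn oil, and the vehicle rats received corn oil alone. Dosing began at 5 weeks of age, so the rats were about 7 weeks old on day 14 and about 9 weeks old on day 28. Total RNA of the renal outer medulla was labelled with Cy3 and hybridised to 1-colour Agilent rat arrays, with 1 animal per array and 3 of the 4 or 5 animals of each group measured. The days were sampled from different animals, so nothing here follows 1 rat through time, and age and days of dosing cannot be told apart within the ANP arrays. The 3 vehicle arrays of each day were therefore measured beside them, and the change with ANP is given together with the change with vehicle. Values are log2 intensities relative to the 75th percentile of the same array, so that a difference of 1 is a 2-fold change.

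The outer medulla holds the S3 segment of the proximal tubule in its outer stripe, together with thick ascending limbs and collecting ducts. The S3 segment takes up and metabolises organic compounds, and it is a known site of injury by nephrotoxic chemicals. Glomeruli, the S1 and S2 segments and the distal convoluted tubule lie in the cortex, next to the outer stripe. Cells that lack amino acids, or whose endoplasmic reticulum or mitochondria are disturbed, phosphorylate the initiation factor eIF2. Translation of the transcription factor ATF4 then rises, and ATF4 drives genes for amino acid synthesis, amino acid transport and tRNA charging. Injured tubule cells switch on genes such as Havcr1, which encodes kidney injury molecule 1.

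Between day 14 and day 28 with ANP, 8 of 18 genes of amino acid and one-carbon synthesis rose, as did 12 of 22 markers of the cortical S1 and S2 segments. Of 27 cell cycle genes 11 fell, as did 8 of 21 matrix genes and the injury genes Havcr1, Gpnmb and Cp. Of 11849 genes tested, 428 were higher at day 28, which is 3.61%, and 205 were lower, which is 1.73% (limma, Benjamini-Hochberg adjusted p under 0.05). Together these are 633 genes, or 5.34%, and the change was at least 2-fold for 170 of the higher and 52 of the lower ones. The smallest adjusted p was 0.0136, and 3185 of the 11849 genes had an unadjusted p under 0.05. Counts of list members at an unadjusted p under 0.05 are given below and are to be set beside that share. The 3 arrays of one day lay wholly above or below those of the other for 29.8% of genes with ANP and for 34.7% with vehicle. No gene was called without ANP day 14 replicate 3, and none without ANP day 28 replicate 2, although 2623 and 2387 genes then kept an unadjusted p under 0.05. Without ANP day 14 replicate 2 the counts were 6 higher and 1 lower, without ANP day 14 replicate 1 they were 193 and 98, and without ANP day 28 replicate 1 they were 120 and 70. Leaving out a vehicle array, which changes only the shared spread and not the ANP ratios, also moved the counts, to 592 higher and 263 lower without day 14 replicate 1, to 492 and 254 without day 14 replicate 3, to 257 and 100 without day 14 replicate 2, to 254 and 130 without day 28 replicate 1, to 190 and 72 without day 28 replicate 2, and to 280 and 131 without day 28 replicate 3. Without ANP day 28 replicate 3 they were 695 and 313. The share of calls that were higher was 67.6% in this scaling, 78.6% with arrays centred on their median and 57.2% after normexp background correction and quantile normalization together, while quantile normalization alone gave 63.7%.

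The vehicle rats were compared over the same days. In the vehicle rats 831 genes were higher at day 28, which is 7.01% of those tested, and 494 were lower, which is 4.17%. The vehicle day 14 arrays were all on 1 slide and the vehicle day 28 arrays all on another. With slide as a fixed block, fitted through the ANP day 14 arrays that lay on both slides, no vehicle gene was called in either direction (limma, smallest adjusted p 0.155), so each vehicle call given below is without that block. Genes called higher in both comparisons numbered 287, which is 67.1% of the ANP calls and 34.5% of the vehicle calls. Those called lower in both numbered 80, which is 39% of the ANP calls and 16.2% of the vehicle calls, and no gene was called in opposite directions. The vehicle ratio was above 0 for 400 of the 428 genes higher with ANP and below 0 for 186 of the 205 lower genes. Across the 11849 genes the ratios with ANP and with vehicle had a Pearson r of 0.68. This is a description across genes from groups that share no array, although ANP day 14 replicates 2 and 3 were scanned on the slide of the vehicle day 28 arrays. When the vehicle change was subtracted from the ANP change, no gene passed an adjusted p of 0.05 (limma, 0% of 11849; smallest adjusted p 0.252), and 1098 genes, or 9.27%, had an unadjusted p under 0.05. No gene's change with ANP is therefore shown here to differ from its change with vehicle after adjustment, and unadjusted p-values for that difference are given below only beside their sizes.

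**Figure D1:**
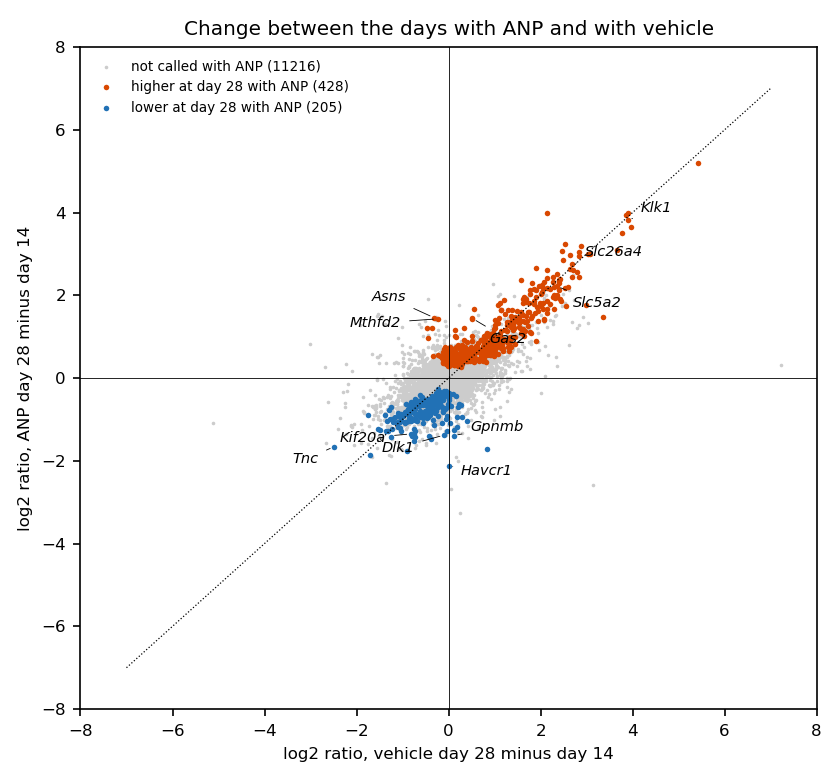
Each point is 1 of 11849 genes, with the log2 ratio of day 28 over day 14 in vehicle rats on the horizontal axis and in ANP rats on the vertical axis (3 arrays per group); red points are the 428 genes called higher and blue points the 205 called lower with ANP. Klk1, Slc26a4 and Slc5a2 lie near the dotted line of equal change, whereas Asns and Mthfd2 lie above 0 with ANP and below 0 with vehicle, and Havcr1 has a vehicle ratio of 0.00.

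The 3 ANP day 28 arrays were alone on 1 slide. ANP day 14 replicate 1 shared a slide with the 3 vehicle day 14 arrays, and ANP day 14 replicates 2 and 3 shared one with the 3 vehicle day 28 arrays. No slide held both ANP days, so slide and day cannot be told apart in the ANP comparison. Correlations between ANP arrays over the tested genes were 0.9904 to 0.9923 within day 14, 0.987 to 0.991 within day 28 and 0.979 to 0.9863 between the days. No spot was saturated, and 65.71% to 68.76% of probes were well above background on the 6 arrays. The labelled tissue was checked through marker lists. Umod, the abundant protein of the thick ascending limb, lay at 9.34, 9.18 and 9.27 on the day 14 arrays and at 9.49, 9.46 and 9.26 on the day 28 arrays. Slc7a13, a transporter of the S3 segment, lay at 8.45, 8.16 and 8.33 and at 8.62, 8.17 and 7.97. Both genes were thus at like levels on both days, and the full marker lists of their segments are given below. Markers of the cortex were also present, and they differed between the days.

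Those cortical markers showed the largest shift of any list. Among 22 markers of the S1 and S2 segments, 12 rose with ANP, none fell, and the list median was 1.56 against 0.0312 over all tested genes. The list's mean on each array, relative to its mean over 12 arrays, was -0.70, -1.0 and -1.08 on the ANP day 14 arrays and 0.24, 0.40 and 0.31 on the ANP day 28 arrays. In vehicle rats it was 0.27, -0.43 and -1.02 on day 14 and 1.08, 1.12 and 0.81 on day 28. The ANP days did not overlap, each vehicle day 28 array lay above each ANP day 28 array, and the vehicle day 14 arrays spread over a wider range than the ANP ones. In pieces of bulk tissue, more cells of a type and more RNA per cell cannot be told apart. When this cortical score was added to the fit as a covariate, no gene was called in either direction (limma, smallest adjusted p 0.5, with 604 genes at an unadjusted p under 0.05). The score is the mean of those same 22 markers, so their own values in that fit are drawn toward 0 by how it was made. It also did not overlap between the days in either treatment, so that fit can hardly tell the score from the day. The cause of the lost calls was not tested. Values from that fit are given beside the results below as "with the cortical score in the fit"; the choice was made after seeing the data.

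**Figure D2:**
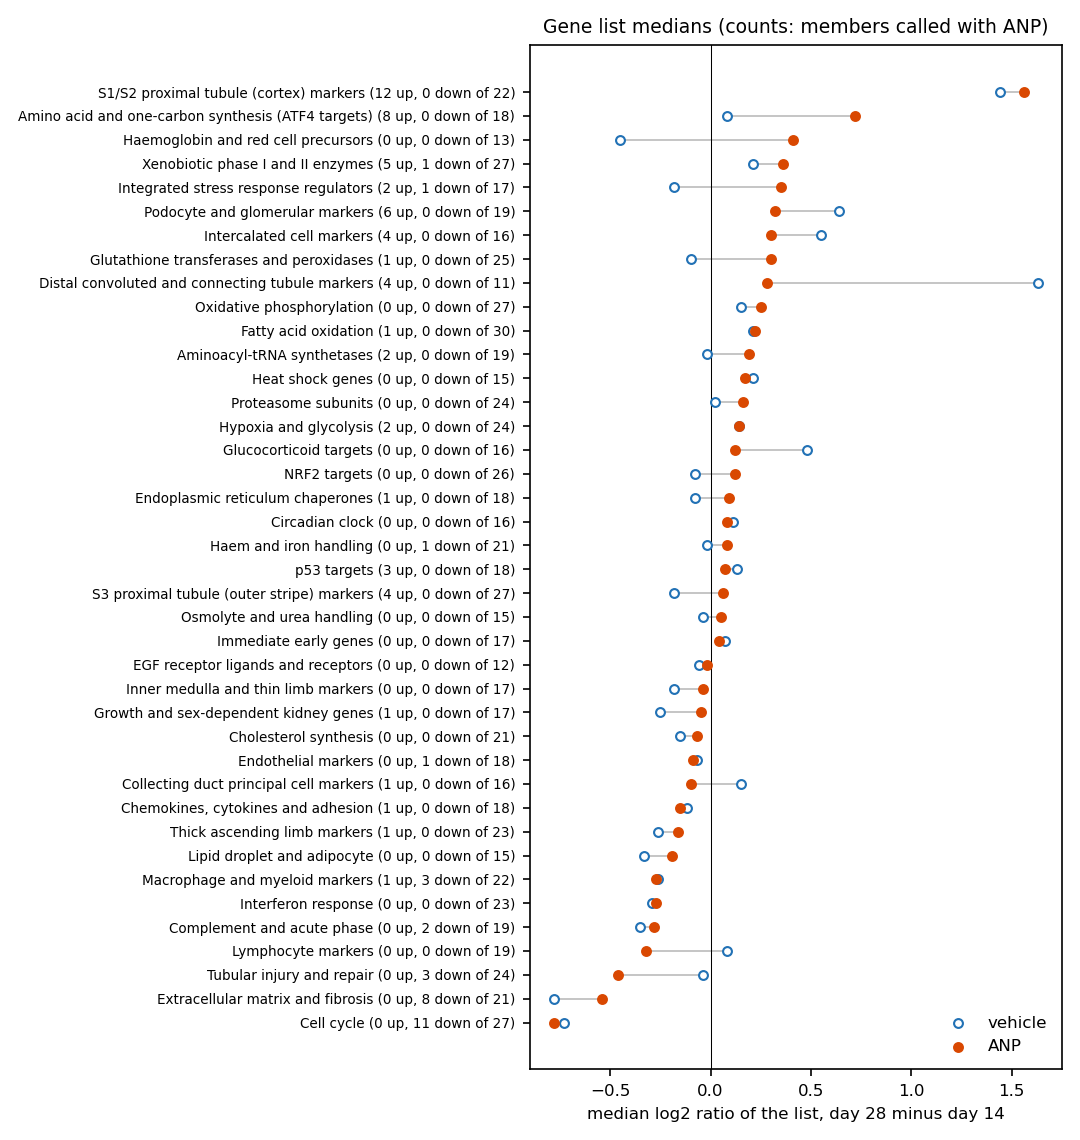
Each line is 1 of 40 gene lists, with the median log2 ratio of day 28 over day 14 across its tested members in ANP rats (filled) and in vehicle rats (open); the counts give members called higher and lower with ANP. The amino acid and stress regulator lists have medians of 0.72 and 0.35 with ANP against 0.08 and -0.18 with vehicle, while the S1/S2, matrix and cell cycle lists moved to similar medians in both.

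The list of amino acid and one-carbon synthesis was put together from genes known as ATF4 targets. Of its 18 tested members 8 rose with ANP and none fell, and the median was 0.72 with ANP and 0.08 with vehicle. The members that rose fell into those that also rose with vehicle and those that did not. Asns, which encodes asparagine synthetase and is a classical ATF4 target, read 0.81, 0.97 and 1.83 on the day 14 arrays and 2.09, 2.90 and 3.00 on the day 28 arrays. Every day 28 array lay above every day 14 array, and the vehicle arrays of both days lay between -0.86 and -0.11. The Asns change was 1.46 ± 0.30 (SE, n = 3 per day), or 2.74-fold, with an adjusted p of 0.0314. With vehicle it was -0.32 (adjusted p 0.547), and the difference of the changes was 1.78 (unadjusted p 0.00175).

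Mthfd2, the mitochondrial folate enzyme that feeds formate to one-carbon metabolism, read -1.01, -0.99 and -0.41 on day 14 and -0.29, 1.00 and 1.18 on day 28. Replicate 1 of day 28 lay close to the day 14 arrays, without overlapping them. The change was 1.43 ± 0.34 (adjusted p 0.0444) against -0.24 with vehicle. Aldh18a1, which makes the proline precursor from glutamate, read -2.33, -2.39 and -2.29 on day 14 and -1.35, -1.02 and -1.61 on day 28. Its day 14 arrays were close to each other and below the vehicle day 28 arrays, and the change was 1.01 ± 0.16 (adjusted p 0.0171) against 0.14 with vehicle. Over the 12 fits that leave out 1 array, Asns stayed past the threshold in 7, Aldh18a1 in 9 and Mthfd2 in 3, with Mthfd2 between 1.16 and 1.89. The changes with the cortical score in the fit were 1.03 for Asns, 0.99 for Mthfd2 and 0.56 for Aldh18a1, none of them called.

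The serine branch of the same list rose in both treatments. Phgdh, the first enzyme of serine synthesis, read 3.75, 3.56 and 4.01 on day 14 and 5.51, 5.75 and 5.62 on day 28 with ANP. Its change was 1.86 ± 0.33 (adjusted p 0.0214) with ANP and 2.13 (adjusted p 0.0056) with vehicle. Psat1, the second enzyme, rose by 0.70 ± 0.12 (adjusted p 0.0186) with ANP and by 0.73 with vehicle, and Psph, the third, rose by 1.27 and 1.02. Shmt2, which converts serine to glycine in mitochondria, rose by 0.84 with ANP and 0.64 with vehicle. Slc3a2, the heavy chain shared by several amino acid exchangers, rose by 0.91 and 1.15. These 5 genes were called in both comparisons, as were 9 of the 12 cortical markers that rose. The Phgdh change was 0.43 with the cortical score in the fit, whereas that of Psat1 was 0.63.

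Pycr1, the last enzyme of proline synthesis, did not pass the threshold. It read -3.93, -3.62 and -2.66 on day 14 and -3.23, -1.41 and -1.42 on day 28, so replicate 1 of day 28 lay within the day 14 range. The value was 1.38 ± 0.46 (adjusted p 0.0989) with ANP and -0.08 with vehicle. The remaining 9 members did not pass either, and their values ran from -0.30 for Slc1a4 and Slc38a2, which import neutral amino acids, to 0.73 for Slc6a9, a glycine transporter.

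Among 17 regulators of the integrated stress response, 2 rose and 1 fell with ANP, and 8 were higher and 1 lower at an unadjusted p under 0.05. Atf4 itself read 4.67, 4.54 and 4.94 on day 14 and 5.30, 5.44 and 5.18 on day 28. The Atf4 change was 0.59 ± 0.13 (adjusted p 0.0368) against -0.10 with vehicle, and 0.68, not called, with the cortical score in the fit. The Atf4 call held in 5 of the 12 fits that leave out 1 array. Sesn2, a stress-induced sensor of leucine, rose by 0.58 with ANP and 0.94 with vehicle. Eif2ak4, the kinase GCN2 that senses uncharged tRNA, was lower at day 28: it read 0.07, 0.28 and 0.07 and then -0.70, -0.47 and -0.26, a change of -0.62 ± 0.11 (adjusted p 0.0235) against -0.29 with vehicle. Atf5, a transcription factor of the same response, read 0.47, 0.31 and 1.52 and then 1.32, 2.50 and 2.70, with a value of 1.40 (adjusted p 0.0526). Fgf21, a hormone released under this response and not well above background on every day 14 array, had an adjusted p of 0.0627, Trib3, a pseudokinase, a value of 1.04 (adjusted p 0.168) and Ddit3, which encodes CHOP, a value of 0.45 (adjusted p 0.134). For Atf5 and Fgf21, as for Mthfd2 and Pycr1, replicate 1 was the lowest of the day 28 arrays.

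Aminoacyl-tRNA synthetases, which charge tRNAs, shifted by smaller amounts. Of 19 tested members 2 rose and none fell, while 17 had values above 0 and 8 of these an unadjusted p under 0.05. Sars1, the seryl-tRNA synthetase, read 1.37, 1.38 and 1.67 on day 14 and 1.99, 2.02 and 2.02 on day 28. The day 28 arrays were nearly identical and above each day 14 array. The change was 0.54 ± 0.09 (adjusted p 0.0195) against -0.18 with vehicle, with an unadjusted p of 0.000223 for the difference, and it was 0.56 with the cortical score in the fit. Yars1, the tyrosyl-tRNA synthetase, rose by 0.46 ± 0.10 (adjusted p 0.0369) against 0.13 with vehicle. Over the 12 fits that leave out 1 array, the call held in 9 for Sars1 and in 4 for Yars1. Of 18 chaperones and stress genes of the endoplasmic reticulum, Dnajb9 rose and none fell, beside 3.61% of all tested genes called higher. Only 2 of the 18 were higher at an unadjusted p under 0.05 (limma), a smaller share than the 3185 of 11849 over all tested genes. The list median was 0.09 with ANP and -0.08 with vehicle, so the list as a whole moved little. Dnajb9, a co-chaperone of BiP, read 0.42, 0.29 and 0.38 on day 14 and 0.98, 1.03 and 0.91 on day 28, a change of 0.61 ± 0.08 (adjusted p 0.0136) against 0.07 with vehicle.

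**Figure D3:**
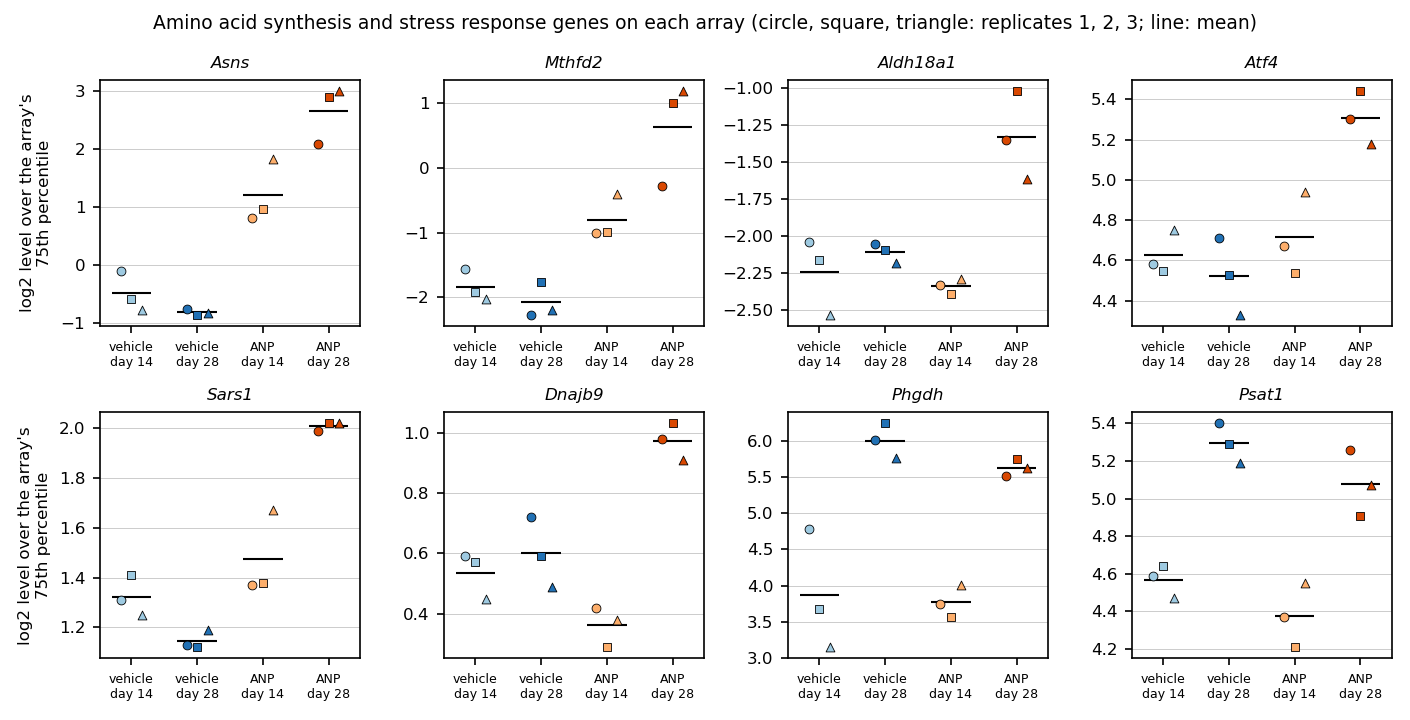
The log2 level of 8 genes relative to the 75th percentile of each array is plotted for the 12 arrays, with a line at each group mean. For Asns, Mthfd2, Aldh18a1, Atf4, Sars1 and Dnajb9 the 3 ANP day 28 arrays are above the vehicle arrays of both days, whereas Phgdh and Psat1 are higher on day 28 in vehicle rats as well.

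Promoters of these 3 lists were read from RefSeq (GRCr8, the 250 bases before each gene's annotated start) for 49 of the 54 tested genes, because members that shift together are often set beside a shared motif. ATF4 with a C/EBP partner is known to bind a composite element whose core was searched as TGATGNAA on both strands. It was held by 13 of the 49 promoters, or 26.5%, against 2.22% of the 9672 tested genes with a promoter and 3.4% of all 33469 promoters of the table. The E-box CACGTG was held by 20.4% of the 49 and 8.05% of the tested genes, the antioxidant response core TGACNNNGC by 24.5% and 12.8%, and the D-box core TTATGNAA by 0% and 1.93%. Over all genes higher at day 28 the ATF4 core was held by 10 of 344 promoters, or 2.91%, and over the lower genes by 4 of 151, or 2.65%. The lists were made of known ATF4 targets and of stress response and tRNA charging genes, so the larger share in them follows from how they were chosen and is no finding. A match is a description of letters and not of binding. Pycr1 and Fgf21, which hold the core but did not pass the threshold, and Asns, which passed and has no match in this window, are printed 5′ to 3′ on the strand of the gene, with the match in capitals. The Pycr1 window is chr10:106420813-106421062 (minus strand) and its match begins 131 bases before the start. The Fgf21 window is chr1:105221377-105221626 (minus strand), with the match on the opposite strand from 143 bases before the start, and the Asns window is chr4:36769416-36769665 (minus strand).
Pycr1: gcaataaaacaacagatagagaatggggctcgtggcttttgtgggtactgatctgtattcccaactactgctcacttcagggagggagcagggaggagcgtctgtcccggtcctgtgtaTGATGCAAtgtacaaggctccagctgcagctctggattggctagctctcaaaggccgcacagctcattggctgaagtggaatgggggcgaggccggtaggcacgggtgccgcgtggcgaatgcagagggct
Fgf21: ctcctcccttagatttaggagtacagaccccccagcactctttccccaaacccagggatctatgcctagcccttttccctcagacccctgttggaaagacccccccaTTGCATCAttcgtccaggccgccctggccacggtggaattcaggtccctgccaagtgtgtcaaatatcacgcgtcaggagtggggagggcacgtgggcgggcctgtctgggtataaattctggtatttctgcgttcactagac
Asns: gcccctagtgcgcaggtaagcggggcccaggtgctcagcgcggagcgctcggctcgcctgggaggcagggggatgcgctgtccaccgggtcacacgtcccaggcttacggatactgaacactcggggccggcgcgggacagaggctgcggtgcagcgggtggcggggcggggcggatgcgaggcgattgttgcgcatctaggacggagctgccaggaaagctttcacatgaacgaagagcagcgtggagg
Of the members that passed the threshold in the 3 lists, none holds the core in this window.

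Havcr1, Gpnmb and Cp were the injury genes that fell between the days with ANP. Of 24 tested genes of tubular injury and repair 3 fell and none rose, with 12 lower and 1 higher at an unadjusted p under 0.05. The list median was -0.46 with ANP and -0.04 with vehicle. Havcr1 read -2.48, -0.08 and -1.86 on day 14 and -3.33, -3.64 and -3.84 on day 28. ANP day 14 replicate 2 was the highest, and all 3 day 28 arrays lay within the range of the vehicle arrays, which was -4.09 to -2.89 over both days. The Havcr1 change was -2.13 ± 0.54, or 4.39-fold (adjusted p 0.049), and the vehicle change was 0.00. Leaving out 1 array gave -2.64 to -1.44, the latter without ANP day 14 replicate 2, and the call held in 2 of 12 fits. The score of the list showed the same array apart, at 0.07, 0.94 and 0.28 on day 14 and -0.13, -0.20 and -0.21 on day 28.

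Gpnmb, a glycoprotein of phagocytic macrophages and injured tubules, read -1.20, -0.51 and -1.38 on day 14 and -2.65, -2.06 and -2.54 on day 28. The day 28 arrays lay within the vehicle range of -2.85 to -2.12 or just above it. Its change was -1.39 ± 0.26 (adjusted p 0.0263) against 0.11 with vehicle, the difference was -1.50 (unadjusted p 0.0019), and the call held in 8 of the 12 fits. Cp, the copper-carrying ferroxidase ceruloplasmin, fell by 1.23 ± 0.25 (adjusted p 0.0314), and its vehicle value was -0.76. Havcr1 was at -2.23 and Gpnmb at -1.61 with the cortical score in the fit, whereas Cp was at -0.52 and the list median at -0.21. None of these genes was called in that fit. Spp1, or osteopontin, had a value of -1.44 with each treatment and an adjusted p of 0.0895 with ANP. Its ANP value turned to 0.22 with the cortical score in the fit. Lcn2, the urinary injury marker NGAL, read -1.55, 0.47 and -0.45 and then -1.75, -1.49 and -1.22, with an adjusted p of 0.453. Clu, or clusterin, had a value of -0.46 (adjusted p 0.178) with ANP and rose by 0.85 (adjusted p 0.0256) with vehicle.

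Of 22 tested macrophage and myeloid markers 3 fell and 1 rose with ANP. Values were below 0 for 18 of them, 7 were lower and 2 higher at an unadjusted p under 0.05, and the list median was -0.27 with ANP and -0.26 with vehicle. Mrc1, the mannose receptor, read -1.07, -1.62 and -1.61 on day 14 and -2.91, -3.04 and -2.39 on day 28, a fall of 1.35 ± 0.23 (adjusted p 0.0205), with -0.75 in vehicle rats. Trem2, a lipid-sensing receptor, fell by 1.23 with ANP and by 1.22 with vehicle, and Cybb, the catalytic subunit of the phagocyte oxidase, fell by 0.63 ± 0.11 (adjusted p 0.0205) against -0.19 with vehicle. S100a9, a calcium-binding protein of neutrophils and monocytes, rose by 1.42 ± 0.35 (adjusted p 0.0467), from -3.51, -2.48 and -2.91 to -2.09, -0.76 and -1.78. Its call held in 3 of the 12 fits that leave out 1 array. Outside the list, Siglec1, the macrophage lectin sialoadhesin, fell by 1.85 with ANP. It was also called lower in vehicle rats (limma, adjusted p 0.0337). No size is given there, because it was not well above background on every vehicle day 28 array. Ccl11, the eosinophil attractant eotaxin, read -3.67, -3.62 and -3.20 and then -4.94, -4.63 and -4.49, a fall of 1.19 ± 0.24 (adjusted p 0.0306) against 0.18 with vehicle. Among 19 complement and acute phase genes 2 fell, among them C4a, a component of the classical pathway, by 0.93 ± 0.16 (adjusted p 0.0204) against 0.18 with vehicle. None of 19 lymphocyte markers passed (limma), and 3 were lower at an unadjusted p under 0.05, a smaller share than the 3185 of 11849 over all tested genes.

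Of 27 cell cycle genes 11 fell with ANP and none rose, 9 fell and 1 rose with vehicle, and the list median was -0.78 with ANP and -0.73 with vehicle. Of the 11 that fell, 7 also fell with vehicle. Kif20a, a kinesin of cytokinesis, read -0.10, 0.12 and -0.15 on day 14 and -1.04, -1.57 and -1.57 on day 28, and the days did not overlap. The fall was 1.35 ± 0.20 (adjusted p 0.0164), with -0.82 (adjusted p 0.0298) in vehicle rats. Cenpf, a kinetochore protein, fell by 1.42 with ANP and 1.25 with vehicle, and Plk1, a mitotic kinase, by 1.09 and 0.94. Foxm1, the transcription factor of mitotic genes, fell by 0.58 ± 0.12 (adjusted p 0.0326) with -0.24 in vehicle rats, and Mcm6, a subunit of the replicative helicase, fell by 1.04 with -0.85. The score of the list was 0.42, 0.71 and 0.38 on the ANP day 14 arrays and 0.06, -0.25 and -0.39 on the day 28 arrays, against 0.28, 0.16 and 0.02 and then -0.76, -0.37 and -0.24 with vehicle. Each ANP day 14 array thus lay above each vehicle day 14 array. The Kif20a value with the cortical score in the fit was -1.52, not called.

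Of 21 genes of the extracellular matrix and fibrosis 8 fell with ANP and none rose, 6 of the 8 also fell with vehicle, and the list medians were -0.54 and -0.78. Dcn, the small proteoglycan decorin, read 4.10, 4.13 and 3.93 on day 14 and 3.54, 2.75 and 2.68 on day 28, a fall of 1.06 ± 0.24 (adjusted p 0.0368), with -0.93 in vehicle rats. Tnc, the repair-associated glycoprotein tenascin C, fell by 1.66 with ANP to arrays that read -3.74, -4.73 and -4.48. It was also called lower in vehicle rats (limma, adjusted p 0.0061). No size is given there, because it was not well above background on every vehicle day 28 array. Col1a2, a chain of type I collagen, fell by 0.88 with ANP and 1.03 with vehicle. Col4a1, a basement membrane collagen, fell by 0.72 ± 0.18 (adjusted p 0.0466) with -0.05 in vehicle rats, but 1 of its other probes changed the opposite way. The metalloproteases Adamts5 and Adamts12 fell by 1.21 and 1.24 with ANP and by 1.06 and 1.54 with vehicle. The values with the cortical score in the fit were -0.34 for Dcn and -1.03 for Tnc. ANP day 28 replicate 1 was the highest day 28 array for Dcn and Tnc, and the Dcn call held in 3 of the 12 fits.

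Dlk1, a Notch-related membrane protein of immature cells, was low on all arrays and lower still at day 28 with ANP. It read -3.68, -3.99 and -3.62 on day 14 and -5.14, -5.61 and -4.69 on day 28, while the vehicle arrays lay between -4.19 and -3.68. The fall was 1.38 ± 0.22 (adjusted p 0.0179), the vehicle value was -0.10, and the difference was -1.28 (unadjusted p 0.00185). In contrast to Havcr1 and Gpnmb, the day 28 arrays lay below the vehicle range. The other decreases among the 15 largest were Vof16, the orphan receptor Gpr37l1 and the spindle protein Ckap2, with values of -1.39, -1.28 and -1.27, with vehicle values of -0.80 for Vof16 and -1.04 for Ckap2.

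**Figure D4:**
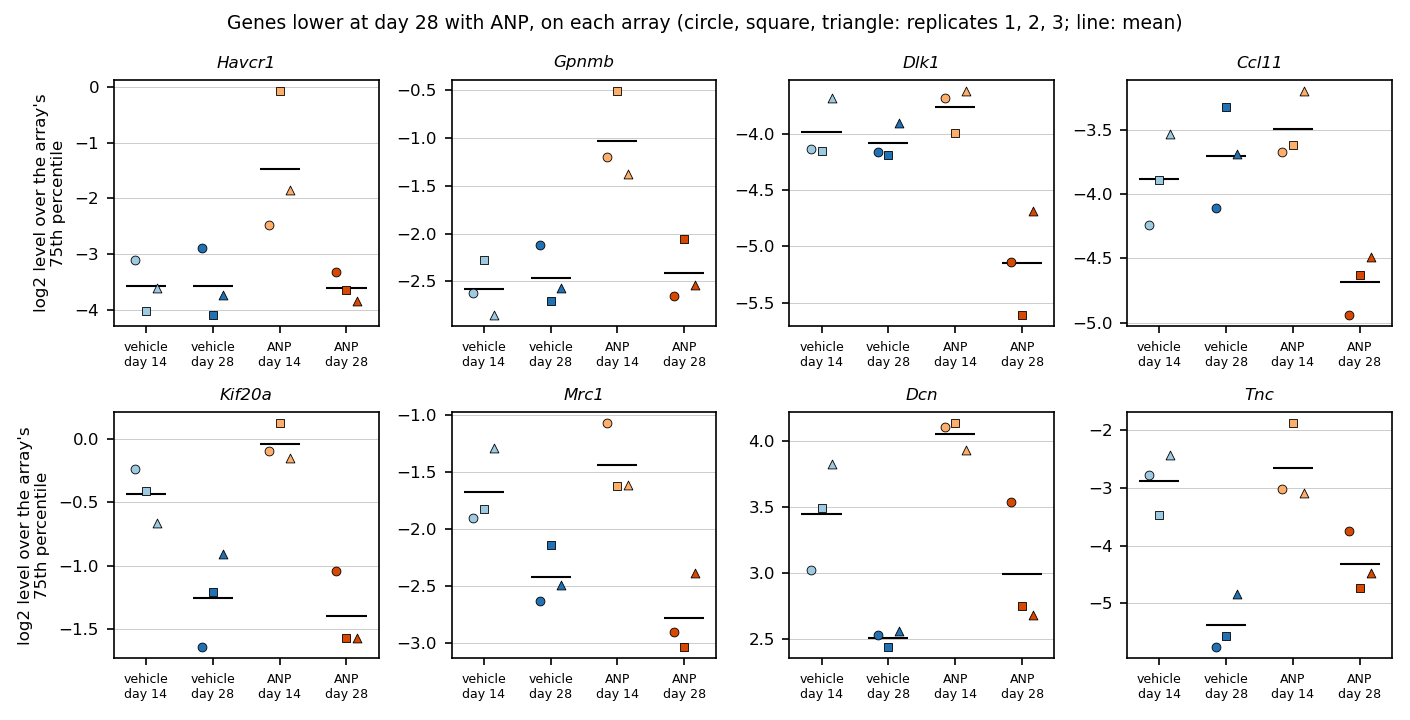
The log2 level of 8 genes relative to the 75th percentile of each array is plotted for the 12 arrays, with a line at each group mean. Havcr1 and Gpnmb are high on the ANP day 14 arrays and near the vehicle level on day 28, Dlk1 and Ccl11 are below the vehicle level on day 28, and Kif20a, Mrc1, Dcn and Tnc are lower on day 28 in vehicle rats too.

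Kallikreins were among the 15 largest increases with ANP over genes detected above background on each of the 6 arrays. Klk1, the tissue kallikrein of the connecting tubule, read 1.96, 1.29 and 1.97 on day 14 and 5.70, 5.73 and 5.24 on day 28. The change was 3.81 ± 0.81, or 14.1-fold (adjusted p 0.0336), and it was 3.90 (adjusted p 0.0155) in vehicle rats, whose day 14 arrays read 4.54, 3.09 and 0.25. Klk1c2, Klk1c8 and Klk1b3 rose by 4.0, 3.93 and 3.64, but these genes are near-identical and their probes may detect each other. The Klk1 value was 0.16 with the cortical score in the fit. Of 11 markers of the distal convoluted and connecting tubule 4 rose with ANP and none fell, against 8 with vehicle, and the list medians were 0.28 and 1.63. Calb1, the calcium buffer calbindin, rose by 2.52 ± 0.55 (adjusted p 0.0352) and by 2.35 with vehicle, and Slc12a3, the thiazide-sensitive cotransporter, by 1.75 and 2.56. The Slc12a3 call with ANP held in 2 of the 12 fits that leave out 1 array. Slc26a4, the chloride and bicarbonate exchanger pendrin of intercalated cells, read 1.28, 0.72 and 0.00 and then 3.18, 3.33 and 3.73, a rise of 2.75 ± 0.41 (adjusted p 0.0164) with 2.69 in vehicle rats. Of 16 intercalated cell markers 4 rose with ANP, all 4 of which rose with vehicle.

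Several of the 12 S1 and S2 markers that rose encode transporters. Slc5a2, the glucose cotransporter SGLT2 of the S1 segment, read 3.61, 3.58 and 2.83 on day 14 and 5.58, 5.64 and 5.46 on day 28. Its change was 2.22 ± 0.43 (adjusted p 0.0292), against 2.35 with vehicle. Slc7a7, a basolateral amino acid exchanger subunit, rose by 2.34 and Slc6a19, the apical neutral amino acid transporter, by 1.81, with 2.39 and 1.75 in vehicle rats. Podocyte markers also rose in 6 of 19 cases, and none fell. Wt1, the podocyte transcription factor, read -3.49, -3.93 and -4.40 and then -1.89, -1.44 and -1.55, a rise of 2.31 ± 0.38 (adjusted p 0.0186) with 2.08 in vehicle rats. With the cortical score in the fit the Slc5a2 value was 0.22, but Slc5a2 is itself one of the markers that make up the score. The Slc26a4 value was 0.96 and the Wt1 value 0.52, and those of Slc12a3 and Slc7a9 turned to -0.20 and -0.04.

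Markers of the segments that belong to the outer medulla moved less. Of 27 S3 markers 4 rose and none fell, with a list median of 0.06. The 4 were Ddc, the decarboxylase that makes dopamine, Bhmt, which remethylates homocysteine, the carnitine transporter Slc22a5 and the cystine transporter subunit Slc7a9, and all 4 also rose with vehicle. With the cortical score in the fit Ddc was at 0.05, Slc22a5 at 0.26, Slc7a9 at -0.04 and Bhmt at 1.30, none of them called. Whether these genes rose in S3 cells was not tested. In vehicle rats 5 of the S3 markers rose but 6 fell, with a list median of -0.18. The difference of the changes was positive for 6 and negative for 2 at an unadjusted p under 0.05 (limma), none past the adjusted threshold. Ddc rose by 2.14 ± 0.43 (adjusted p 0.0306) with ANP and 2.21 with vehicle. Of 23 thick ascending limb markers the potassium channel subunit Kcnj16 rose by 0.77, with 0.83 in vehicle rats, and none was called lower with ANP. Values were below 0 for 15 of the 23, and 4 were lower and 2 higher at an unadjusted p under 0.05 (limma). The list medians were -0.16 with ANP and -0.26 with vehicle. Of 16 principal cell markers Kcne1, another channel subunit, was called higher in both treatments, but it was not well above background on all day 14 arrays of either, so no size is given. Sox17, a transcription factor of arterial endothelium, fell by 0.85 ± 0.19 (adjusted p 0.0397) with -0.51 in vehicle rats and was the only one of 18 endothelial markers to pass. Its call held in 2 of the 12 fits that leave out 1 array.

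**Figure D5:**
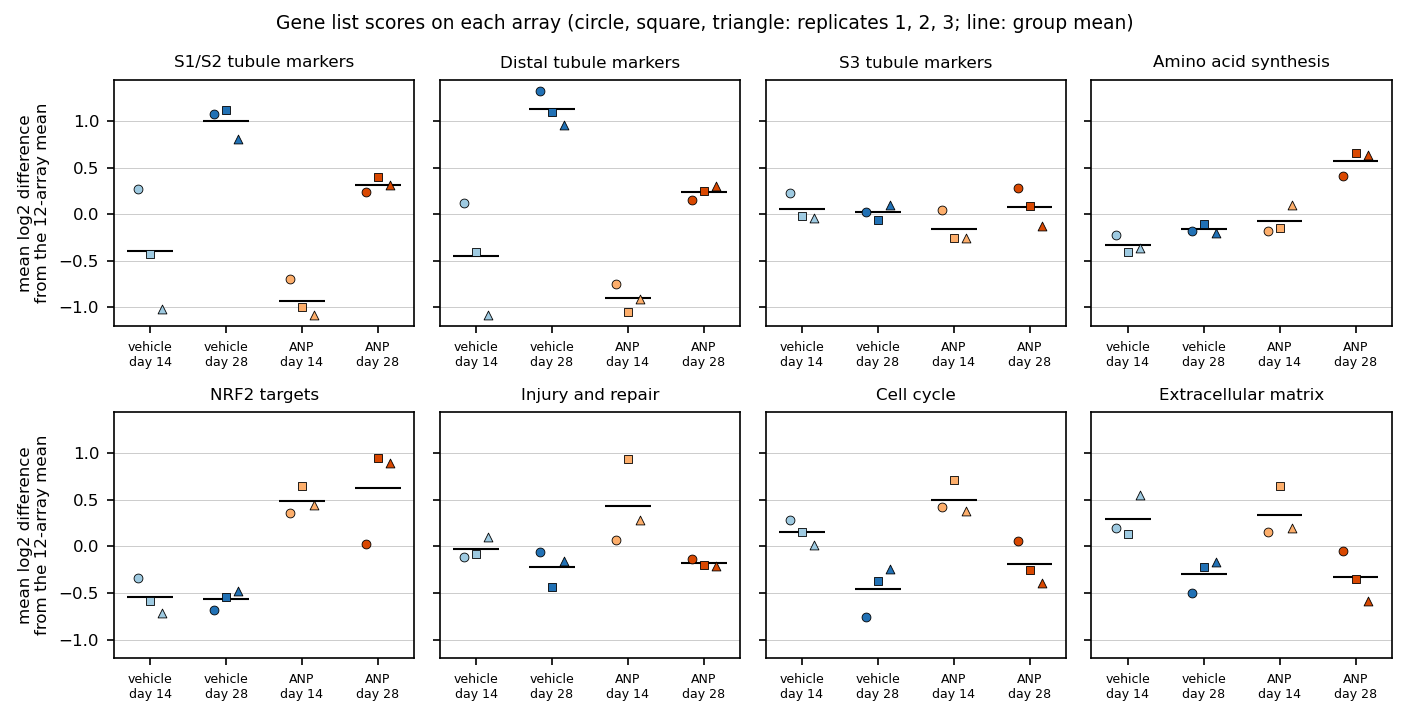
Each panel shows the mean of 1 gene list on each of the 12 arrays, relative to its mean over all of them on the log2 scale, with a line at each group mean. The S1/S2 and distal tubule scores are higher on day 28 in both treatments and the amino acid score is highest on the 3 ANP day 28 arrays (0.41, 0.66 and 0.63), while the NRF2 score of ANP day 28 replicate 1 is 0.03 against 0.95 and 0.90 on the other arrays.

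NRF2 targets, the antioxidant genes that respond to electrophiles, showed no call in either direction. None of 26 passed (limma), 1 was higher at an unadjusted p under 0.05, and the list median was 0.12 with ANP and -0.08 with vehicle. The day 28 arrays differed widely among themselves. Akr1b8, an aldo-keto reductase, read 5.26, 6.03 and 5.67 on day 14 and 2.62, 6.5 and 6.12 on day 28. Gstm1, a glutathione transferase, read 4.44, 4.28 and 4.0 and then 2.66, 6.10 and 5.39, and Nqo1, the quinone reductase, 1.17, 2.20 and 1.51 and then 0.40, 2.12 and 2.61. In each case replicate 1 was below all day 14 arrays and the other arrays were near or above the highest of them. Hmox1, the inducible haem oxygenase, read 0.36, 1.74 and 1.00 and then -0.91, 1.18 and 2.32. The values over both days were 0.08 ± 0.53 for Nqo1 (adjusted p 0.933) and 0.48 ± 0.73 for Gstm1 (adjusted p 0.701), smaller than the spread among the day 28 arrays. Gclm, the regulatory subunit of glutathione synthesis, had a value of 0.37 with ANP (adjusted p 0.309) and fell by 1.35 with vehicle (adjusted p 0.0067), and the difference was 1.72 (unadjusted p 0.000243).

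Drug and xenobiotic enzymes rose in 5 of 27 cases and fell in 1. Adh1c, an alcohol dehydrogenase, rose by 1.77 ± 0.36 (adjusted p 0.0309) and by 2.01 with vehicle, and Cyp2c23, the arachidonic acid epoxygenase of rat kidney, by 1.18 and 0.99. Aldh1a1, a retinaldehyde dehydrogenase, and Akr1a1, an aldehyde reductase, rose by 0.88 and 0.67, and by 1.02 and 0.58 with vehicle. Cyp3a9, a steroid hydroxylase, was the gene called lower (adjusted p 0.044), and it was not well above background on all day 28 arrays, so no size is given. Gpx3, the plasma glutathione peroxidase made by the proximal tubule, was the 1 of 25 glutathione transferases and peroxidases to rise, by 1.95 ± 0.34 (adjusted p 0.0215), with 1.91 in vehicle rats.

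Gas2, an actin-associated protein, read -1.30, -0.91 and -1.55 on day 14 and 0.20, 0.12 and 0.22 on day 28, and the vehicle arrays lay between 0.69 and 1.60. The rise of 1.44 ± 0.19 (adjusted p 0.0136) with 0.52 in vehicle rats left all ANP arrays below all vehicle arrays. Its value was 1.46 with the cortical score in the fit, and the call held in 10 of the 12 fits that leave out 1 array. Bnip3, a mitophagy receptor induced by hypoxia, rose by 0.58 ± 0.10 (adjusted p 0.0212) with 0.07 in vehicle rats, and Adm, or adrenomedullin, by 0.75 with 1.29. These were the 2 of 24 hypoxia and glycolysis genes to pass. Of 18 p53 targets Gadd45a, Plk3 and Sesn2 rose, by 0.57, 0.78 and 0.58.

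Other large increases were of genes with diverse roles. Akr1b10, an aldo-keto reductase, had the same rise as Klk1c2, 4.0 ± 1.0 (adjusted p 0.0481), but its day 14 arrays read -1.0, -5.30 and -5.61 against -0.60, 0.46 and 0.23 on day 28, so replicate 1 of day 14 lay close to the day 28 arrays and the call held in 2 of 12 fits. With vehicle the Akr1b10 value was 2.14 (limma, adjusted p 0.208), and each day 28 array lay above each day 14 array. The difference of its changes was 1.86 (limma, unadjusted p 0.216). The plasma glycoprotein gene Hrg rose by 3.07, the reductase gene Dhrs2l1 by 3.05 and Spink1l, a protease inhibitor gene, by 2.86. The homeobox gene Hmx2 rose by 2.63, Smlr1 by 2.60 and the nuclear receptor gene Rxrg by 2.45. The vehicle values of Hrg, Spink1l, Hmx2, Smlr1 and Rxrg lay between 2.15 and 2.68. Dhrs2l1 was also called higher with vehicle (limma, adjusted p 0.0104), without a size because it was not well above background on every vehicle day 14 array. For genes too dim on 1 of the days to be told from background there, the change has only a bound, taken against the lowest signal that was well above background. Insrr, an insulin receptor relative of intercalated cells, was at least 6.55-fold higher at day 28, B3galt2, a galactosyltransferase, at least 4.52-fold and Qrfpr, a peptide receptor, at least 3.53-fold. All of these were also called higher with vehicle (limma, adjusted p 0.00487, 0.00858 and 0.00329). Anxa10 was at least 2.49-fold lower, Olr35 at least 2.43-fold and Pygo1 at least 1.85-fold. Olr35 was also called lower with vehicle (limma, adjusted p 0.024), whereas Anxa10 (0.0659) and Pygo1 (0.467) were not.

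Several lists moved little or as a whole without calls. No gene of oxidative phosphorylation passed (limma, 0 of 27), although 26 had values above 0 and 10 were higher at an unadjusted p under 0.05; the medians were 0.25 with ANP and 0.15 with vehicle. None of 24 proteasome subunits passed, all 24 had values above 0 with a median of 0.16, and 9 were higher at an unadjusted p under 0.05. For haemoglobin and red cell precursor genes, none of 13 passed and 2 were higher at an unadjusted p under 0.05, with medians of 0.41 with ANP and -0.45 with vehicle. The difference of their changes had a median of 0.79 and was positive for 5 at an unadjusted p under 0.05 (limma), beside 9.27% of all tested genes in either direction. The list's score was 0.01, 0.44 and 0.95 on the ANP day 28 arrays, and replicate 1 lay within the day 14 range of -0.03 to 0.31. None of 21 cholesterol synthesis genes passed (1 lower at an unadjusted p under 0.05), none of 16 circadian genes (1 higher) and none of 23 interferon response genes (4 lower). In each of these lists the share for the change with ANP was below that over all tested genes, which was 3185 of 11849. The shares for oxidative phosphorylation and the proteasome were somewhat above it.

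Differences between the ANP and vehicle changes, none past the adjusted threshold, arose in different ways, and those named here were ranked by size among genes with an unadjusted p under 0.01. Havcr1, whose difference was -2.13 with an unadjusted p of 0.018, lies outside that rule. Cldn14, a tight junction protein that restricts cations, had the largest of these at 3.84 (unadjusted p 0.00173), made of 0.83 with ANP and a fall of 3.01 with vehicle (adjusted p 0.0175). Slc22a7, an organic anion transporter, differed by 1.53 (unadjusted p 0.000322), with 0.39 with ANP and a fall of 1.14 with vehicle. On the negative side Lhfpl2, at -1.83 (unadjusted p 0.000423), was at -0.56 with ANP and rose by 1.26 with vehicle, and Reln, the matrix glycoprotein reelin, at -1.83, was at 0.79 and rose by 2.61. The metallothionein gene Mt1, at -1.27, was at 0.48 with ANP and rose by 1.76 with vehicle. Areg, the EGF receptor ligand amphiregulin, also lies outside that rule, with a difference of 2.35 (unadjusted p 0.0144). It had a value of 1.91 with ANP (adjusted p 0.0744) and -0.44 with vehicle.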

How the data were processed

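Total RNA of the outer medulla was measured on 1-colour Agilent arrays. The submitters' processing notes name Agilent Feature Extraction 10.7, and the processed intensity of each spot, per the file headers, was used as deposited. Slides were told apart by the file headers. The authors' deposited value table holds a linear ratio per probe. Its log2 values followed the scanner intensities (r of at least 0.9999 on each array, column medians 0.099 to 0.108), what it is relative to is not given in the sources used here, and it served as an alternative. Flags gave outlier spots, which were dropped (none among the named genes), and probes well above background. Log2 intensity minus the array's 75th percentile was computed over 61657 probes. Accessions matched RefSeq (GRCr8 gene table) for 27460 probes of 15284 genes, and 34197 probes stayed unnamed. Each gene took its brightest probe. A gene was tested where that probe was flagged as detected over background on each of the 3 arrays in any of the 4 groups, which left 11849 genes. Among the called genes 357 had several probes, and for 20 a further probe had the opposite sign.

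The 12 arrays of days 14 and 28 entered 1 limma 3.58.1 fit (R 4.3.3, lmFit and eBayes) with 4 groups, tested on simulated data. Contrasts were day 28 minus day 14 with ANP, the same with vehicle, and their difference, with Benjamini-Hochberg adjustment over all genes at 0.05 and two-sided tests. Precision is limited by 3 animals per group. The normexp alternative used the median foreground and background signals with an offset of 50, followed by quantile normalization; the mean signal was not used here. Genes named were the 15 largest changes in each direction among called genes whose days did not overlap and that were detected on all 6, the 3 largest bounds either way, up to 4 called members of each list, the largest differences of changes at an unadjusted p under 0.01, a fixed panel, and list members as examples; some genes that met this rule are not reported here. The members of this comparison and the 40 gene lists were chosen with earlier results of these data known. The pools of days 1 and 7 entered no test.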

Additional observations from a re-analysis of the deposited data

Results flagged for a closer look

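The pools of days 1 and 7, each of 3 animals on 1 array and outside the comparison above, held signals above every vehicle value of the same gene, and there is no replicate to test them. Havcr1 in the treated pool exceeded the vehicle pool by 9.64 on the log2 scale on day 1 and by 4.23 on day 7. The corresponding excess of Hmox1 was 7.88 and 4.57, that of Akr1b8 was 5.90 and 5.37, and that of Nqo1 was 3.73 and 3.16. Areg exceeded the vehicle pool by 3.76 and Mthfd2 by 3.03 on day 1, and Pir, an iron-binding NRF2 target, by 3.27 on day 7.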

How the results depend on the processing

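Main counts with ANP were 428 higher and 205 lower genes, and with vehicle 831 and 494. Every probe without a filter gave 119 and 47 with ANP, 1343 higher with vehicle and 3 lower for the difference of changes. All genes without the filter on dim probes gave 187 and 76. Fitting only the 6 arrays compared gave 281 and 89 with ANP and 383 and 244 with vehicle. Slide as a random block (correlation -0.089) gave 862 and 529, and 1261 and 941. Normexp together with quantile normalization gave 310 lower with ANP and 821 with vehicle. The authors' value table gave 431 and 211, and quantile normalization alone 312 and 178 with ANP and 639 lower with vehicle. With the cortical score as a covariate every count was 0 for both treatments, Slc12a3 turned to -0.20 and Slc7a9 to -0.04, and 610 of the 633 called genes kept their direction. With slide as a fixed block in the vehicle comparison both counts were 0 (smallest adjusted p 0.155). The causes of these shifts were not tested. Leaving out 1 array gave 0 to 695 higher and 0 to 313 lower with ANP, 302 to 985 and 128 to 611 with vehicle, and 0 to 2 and 0 to 1 for the difference. The replicate block gave 550 higher and 314 lower genes with ANP; same-numbered arrays correlated at 0.11, -0.03 and -0.03 and 1 of 3 day 28 arrays was closest to its own number, so the numbers do not pair the animals. The covariate, the slide as a fixed block and normexp on the median signal were chosen after seeing the data. Scalings moved the median ratio of all genes between -0.017 and 0.086.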

Other observations

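Set beside the treated pools, the ANP arrays of days 14 and 28 differed in order from gene to gene. Havcr1 lay at 4.59 in the day 1 pool and at -0.07 in the day 7 pool, and its 3 day 28 arrays were between -3.84 and -3.33. Asns lay at 1.00 and 0.59 in the pools, below each of the day 28 arrays, which read 2.09 to 3.00. Mthfd2 lay at 0.98 on day 1, -1.11 on day 7 and between -0.29 and 1.18 on day 28. Gpnmb lay at -0.11 and -1.37 in the treated pools and at -1.79 and -2.0 in the vehicle pools. Gas2 lay at 0.02 and -0.22 in the treated pools, above each of the 3 day 14 arrays. Klk1, the connecting tubule kallikrein, lay at 5.02 and 4.57 in the treated and at 5.08 and 3.56 in the vehicle pools, so high levels were not limited to day 28. The pools are mixtures on another slide and support no test.

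Among 20652 probes without a gene name that met the same detection rule, 417 were higher and 225 lower at day 28 with ANP. With vehicle 667 were higher and 430 lower, and 0 passed for the difference of changes.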
